A study of Bos taurus with 14 samples.

Results

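In bovine endometrium 6 genes, of 15524 listed, each stood at 2 separate levels across 14 libraries, with high fertility libraries among those at the low level. They are ENSBTAG00000001392, ENSBTAG00000001558, ENSBTAG00000009656, ENSBTAG00000011985, ENSBTAG00000012692 and ENSBTAG00000021565. They were chosen from these same counts, because the sorted log2 CPM of the gene has a gap of 2 or more, so the gaps and levels below are a description with no test. More genes meet that rule than the 6, as given below, and on what ground these were taken from among them is not known. CPM is the usual count rate relative to the library total, here after scaling for composition, and a gap of 2 in log2 CPM is a 4-fold step with no library inside it. All 6 passed the filter on low counts, as did 14929 genes in all. The identifiers are given without symbols, since none of them could be paired with a name, so what each gene encodes is not stated and levels are not ranked between genes, whose lengths are not known here.

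The libraries were made from polyadenylated RNA of endometrium, the lining of the uterus, taken from the ipsilateral uterine horn at a time point labelled day 7 of oestrus. Of these, 7 carried the label Fert+ (high fertility) and 7 the label Fert- (low fertility). The labels give 1 set of protocols for all 14, and neither treatment nor control group, nor breed, age or batch. They do not say that each library is a separate cow, so spread here is that between samples, numbered only in listed order. In whole tissue such as this, fewer cells of a type and less RNA per cell cannot be told apart. The tissue label was not checked against marker genes, because no identifier had a name.

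The endometrium holds luminal and glandular epithelium, stroma, vessels and immune cells, and changes with progesterone and oestrogen through the cycle. Most genes of such a tissue vary by degrees between animals. A gene can instead stand at separate levels when animals carry different alleles of it, for example a deleted copy or a variant in its promoter, or when its reads match the reference sequence in some animals only. With such an allele, animals with a single working copy would often lie between those with none and those with a pair. Whether the 6 genes carry such alleles was not tested.

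Total counts ran from 20641141 to 23641397. Low fertility replicates 4 and 5 stood apart from the other 12 libraries. Both lay at least 1 log2 unit outside the other 12, on the same side, for 68 genes, 4 above and 64 below. The next of the 91 pairs of libraries had 18 such genes. By the median Pearson r of log2 CPM with the other libraries, low fertility replicate 5 was lowest (0.922), followed by high fertility replicate 1 (0.941) and low fertility replicate 4 (0.943), with the others at 0.951 to 0.970. Values that move most without low fertility replicates 4 and 5 are given both ways.

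Across all 14929 genes tested the median of the largest gap was 0.32 log2 units. A gap of 2 or more was found for 121 genes, 0.811% of those tested. In 71 of these a single library lay alone at the low level, low fertility replicate 5 in 49 of them and low fertility replicate 4 in 13, and in 18 a single library lay alone at the upper level. Without that pair of libraries 61 genes had such a gap. At least 2 libraries stood on each side in 32 genes (0.214%; 25 without low fertility replicates 4 and 5), and in 21 of them (0.141%) high fertility libraries were among those at the low level. The 6 genes are among these 21, and the other 15 had gaps from 2.08 to 6.33. Among genes with 2 or more libraries on each side, the nearest inside the threshold had gaps of 2.04 and 2.07, and the nearest outside had gaps of 1.991 and 1.996.

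**Figure D1:**
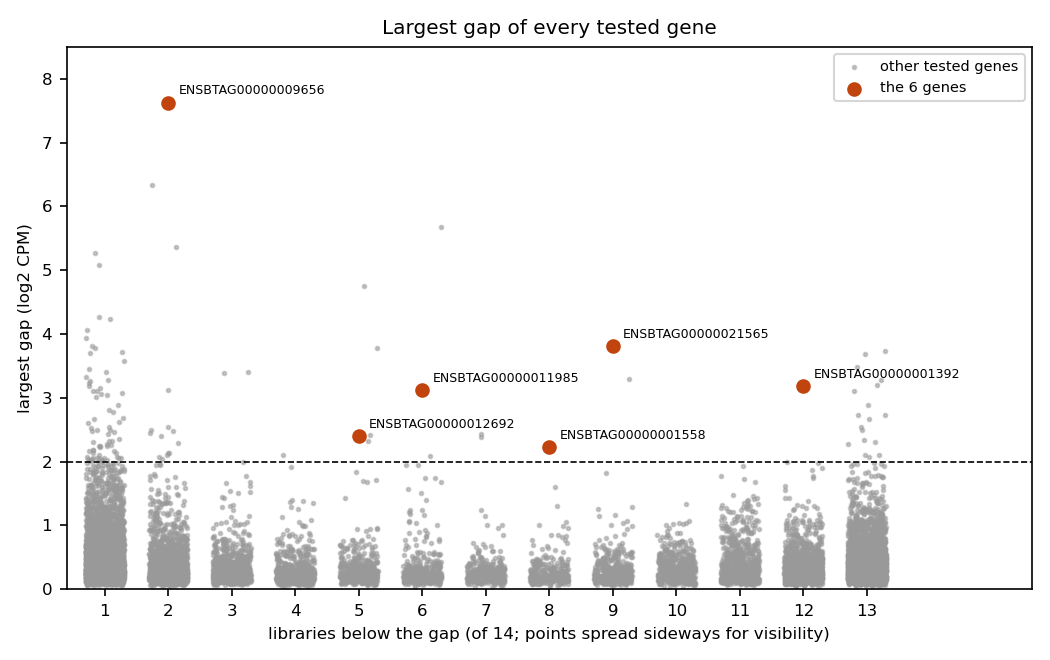
Largest gap in sorted log2 CPM (vertical axis) against the number of libraries below that gap (horizontal axis) for each of 14929 tested genes, as grey points, with the 6 genes in orange and the threshold of 2 as a dashed line. Most genes lie near the median of 0.32, and ENSBTAG00000009656, at 7.63, is the highest point of the plot.

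ENSBTAG00000009656 was the clearest case, absent from 2 high fertility libraries and well expressed in the other 12. Its gap of 7.63 was the widest of all 14929 genes. High fertility replicates 2 and 4 held 0 counts each, in libraries of 23641397 and 22171635 counts. A count of 0 was read as allowing up to 3 counts per library, a floor of 0.140 CPM that covers counting error only. The 12 other libraries held 384 to 1235 counts, and their median of 24.6 CPM was at least 176-fold higher than that floor. The low level is thus at the limit of detection and is not a reduced level that these counts can measure.

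Within the upper level ENSBTAG00000009656 ran from 17.3 to 56.0 CPM, a 3.24-fold range. High fertility replicates 1, 5, 7 and 6 were lowest, at 17.3, 17.6, 18.4 and 19.9 CPM. Low fertility replicates 5, 3, 6, 1 and 7 followed at 21.8, 24.4, 24.8, 25.5 and 29.6 CPM, then high fertility replicate 3 at 33.0 CPM and low fertility replicate 4 at 35.7 CPM. Low fertility replicate 2 was highest, at 56.0 CPM. These values form a run whose widest step, below low fertility replicate 2, was 0.65 log2 units, with no separate intermediate level. A step of 1 log2 unit would be a 2-fold change, as between a single copy and a pair. The 3.24-fold range is wider than that, so a run without such a step cannot show whether copy numbers differ, which was not tested. The upper-level ranges of both fertility groups overlapped.

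Another gene, ENSBTAG00000038128, followed the same libraries. It had 0 counts in high fertility replicates 2 and 4, and 168 to 1194 counts in the other 12, with a gap of 6.33. Of all tested genes it alone shared the division of libraries of ENSBTAG00000009656 with a gap of 1 or more, and its Pearson r with that gene over the 14 libraries was 0.984. That value rests on the shared absence: over the 12 libraries at the upper level r was 0.778. The ratio of ENSBTAG00000038128 to ENSBTAG00000009656 in CPM was not fixed, running from 0.286 to 1.49 with a median of 0.519. Low fertility replicate 4 gave the highest ratio, with 1194 counts of ENSBTAG00000038128 against 800 of ENSBTAG00000009656, and low fertility replicate 3 the lowest, with 168 against 587. No gene with a gap of 1 or more had the opposite division, low in the 12 libraries and high in these 2. Whether the genes are near-identical copies, and how reads matching both would then have been counted, could not be checked here.

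**Figure D2:**
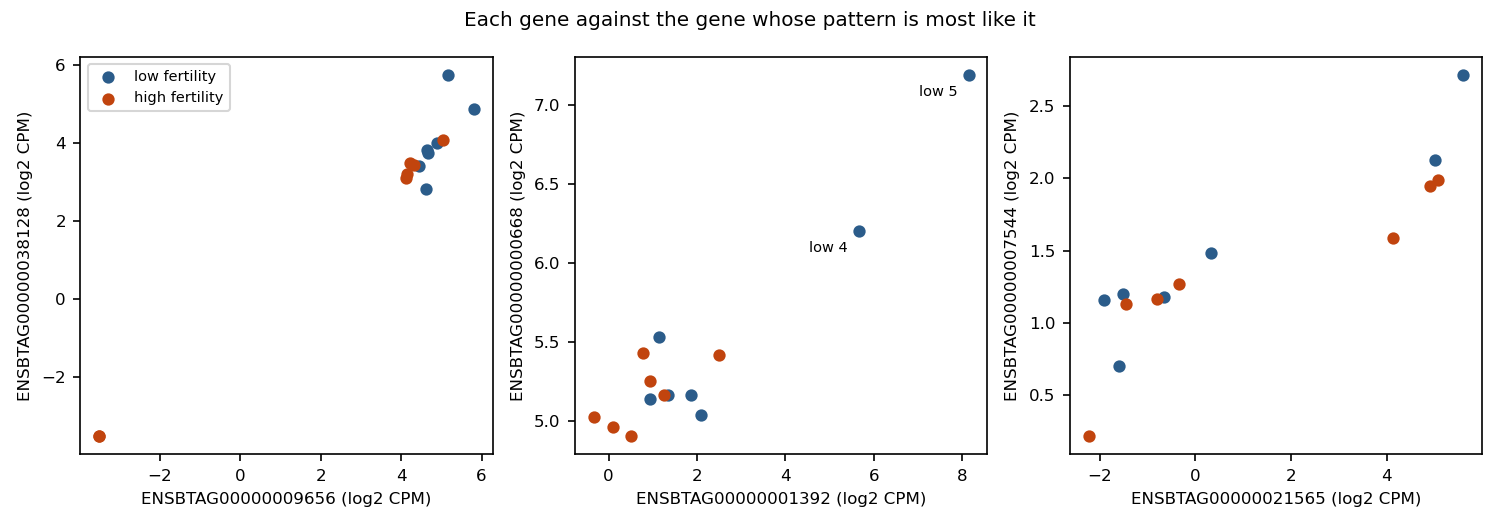
Log2 CPM of ENSBTAG00000009656, ENSBTAG00000001392 and ENSBTAG00000021565 (horizontal axes) against the tested gene with the highest Pearson r to each (vertical axes), 1 point per library, low fertility in blue and high fertility in orange. In the left panel high fertility replicates 2 and 4 share the point at the lower left, where both genes had 0 counts; in the middle panel low fertility replicates 4 and 5 stand apart from the other 12; in the right panel the vertical values run on without a gap of the size seen along the horizontal axis.

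ENSBTAG00000021565 was low in 9 libraries and high in 5, in both fertility groups, with a gap of 3.81. The low level, at 3 to 28 counts, was a trace of the upper level: its median of 0.274 CPM was 0.858% of the upper median of 32.0 CPM, a 116-fold difference. Low fertility replicates 4, 1, 7, 2 and 3 were at 4, 6, 6, 12 and 28 counts. High fertility replicates 2, 3, 5 and 4 were at 3, 6, 11 and 15 counts. These low counts differed by more than counting error, with a chi-square per degree of freedom of 5.94, where counting error alone gives about 1.

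At the upper level of ENSBTAG00000021565, high fertility replicate 6 was lowest, at 17.5 CPM. High fertility replicate 7, low fertility replicate 6 and high fertility replicate 1 lay close together at 30.1, 32.0 and 33.4 CPM, and low fertility replicate 5 was at 48.5 CPM. High fertility replicate 6 thus stood 0.78 log2 units below the next library, the widest step inside the upper level of this gene. Without it the gap was 4.56. On the other side of the gap low fertility replicate 3, at 1.16 CPM, was the highest of the low libraries, and without it the gap was 4.48. On the log2 scale no library lay midway between the levels. In CPM, high fertility replicate 6, at 17.5, lay near the middle between the low median of 0.274 and the upper median of 32.0. Whether it carries a single working copy was not tested. The gene with the most similar pattern was ENSBTAG00000007544 (r = 0.888 over 14 libraries, 0.884 without low fertility replicates 4 and 5). It ran from 1.08 to 6.46 CPM and was above all 9 low libraries in each of the 5 upper ones, by 0.10 log2 units at the boundary. In all, 6 other genes had the same 5 libraries above the other 9 and 11 had them below, none of them by 1 log2 unit or more.

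ENSBTAG00000011985 was low in 6 libraries and high in 8, with a gap of 3.12, and had the tightest upper level of the 6 genes. The upper libraries spanned 15.2 to 22.4 CPM, a 1.47-fold range, with an SD of 0.23 log2 units (n = 8). For comparison, the median SD of a tested gene over all 14 libraries was 0.36. The 8 upper libraries were picked out by their own values, which narrows their SD. Low fertility replicates 1, 5 and 4 were at 15.2, 15.3 and 21.1 CPM. High fertility replicates 1, 5, 6, 4 and 7 were at 15.4, 16.8, 16.8, 21.2 and 22.4 CPM. The fertility groups overlapped throughout this level, and its widest step was 0.32 log2 units.

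The low level of ENSBTAG00000011985 was itself uneven. Low fertility replicates 7, 2, 3 and 6 held 22, 24, 34 and 36 counts, and high fertility replicate 2 held 25, whereas high fertility replicate 3 held 5. The exact Poisson 95% interval of those 5 counts, 1.62 to 11.7, did not reach that of the next library, 13.8 to 33.3. High fertility replicate 3 stood 1.72 log2 units below the rest, at 0.229 CPM, so that the gene could be read as having 3 levels, with a single library at the lowest. The middle libraries, at 0.954 to 1.67 CPM, were not midway: the low median of 1.06 CPM was 6.31% of the upper median of 16.8 CPM. No other gene had all 8 upper libraries above all 6 low ones, or the reverse. The highest r of any gene was 0.688 and the lowest -0.678.

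ENSBTAG00000001558 was low in 8 libraries and high in 6, with the narrowest gap of the 6 genes, 2.22. The low median, 0.384 CPM, was 10.1% of the upper median of 3.80 CPM. Every low library held some reads, at 4 to 14 counts. Whether so few counts are a reduced level of the gene or reads from elsewhere was not tested. Low fertility replicates 4, 5, 1, 2 and 7 held 6, 8, 14, 14 and 14 counts, and high fertility replicates 6, 5 and 3 held 4, 5 and 9. The upper libraries were low fertility replicates 6 and 3, at 72 and 91 counts, and high fertility replicates 1, 4, 2 and 7, at 73, 82, 104 and 129 counts. The upper level spanned 1.68-fold and its widest step was 0.35 log2 units, with no intermediate library. The low counts had a chi-square per degree of freedom of 1.94, where counting error alone gives about 1. With only 8 libraries, whether their scatter exceeded counting error was not tested. Among tested genes 0 had the same division of libraries and 1 the opposite, by 0.02 log2 units, and the highest r was 0.767.

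ENSBTAG00000012692 was low in 5 libraries and high in 9, with a gap of 2.39. The low state was near the limit of detection. Low fertility replicates 1 and 7 held 2 and 5 counts, and high fertility replicates 1, 7 and 5 held 2, 3 and 5 counts. Their scatter was no larger than counting error, with a chi-square per degree of freedom of 0.722. The low median of 0.128 CPM was 4.92% of the upper median of 2.61 CPM.

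The upper level of ENSBTAG00000012692 was a broad run and not a tight group. Low fertility replicates 6, 4, 3, 5 and 2 were at 1.53, 1.96, 2.91, 4.37 and 4.94 CPM. High fertility replicates 2, 3, 4 and 6 were at 2.03, 2.47, 2.61 and 6.94 CPM. This is a 4.53-fold range, from 33 to 155 counts, with a widest step of 0.57 log2 units between 2.91 and 4.37 CPM. Above that step lay 3 libraries and below it 6, with no upper library near the low level. The highest r of another gene was 0.789 and the lowest -0.799. By division of libraries, 0 genes matched it and 1 had the opposite, by 0.23 log2 units.

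ENSBTAG00000001392 differed from the other 5, because its upper level consisted of low fertility replicates 4 and 5, the libraries that stood apart across many genes. Low fertility replicate 5 held 6344 counts (283 CPM) and low fertility replicate 4 held 1135 (50.6 CPM). The other 12 held 16 to 129 counts, with a median of 1.98 CPM. Low fertility replicates 2, 7, 3, 6 and 1 were at 1.81, 2.13, 2.45, 3.57 and 4.14 CPM. High fertility replicates 5, 6, 2, 4, 3, 1 and 7 were at 0.705, 0.985, 1.32, 1.63, 1.83, 2.30 and 5.51 CPM. The 12 libraries thus formed a run of 7.82-fold, with a chi-square per degree of freedom of 20.1, that overlapped between the fertility groups.

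The upper libraries of ENSBTAG00000001392 were 2.48 log2 units from each other, nearly as far as the gap of 3.18 that separated them from the rest. On the log2 scale low fertility replicate 4 can therefore be read as an intermediate value. In CPM it was not midway, at 50.6 against 283 in low fertility replicate 5 and a median of 1.98 in the other 12. Without low fertility replicates 4 and 5 the widest gap was 0.51, and the gene no longer had 2 levels. Many genes shared its division of libraries: 3 were higher in the same pair by 1 log2 unit or more, and 64 were lower by as much. Its most similar gene, ENSBTAG00000000668, had an r of 0.938 over 14 libraries and 0.410 over the 12 without the pair. The lowest r was -0.948, for a gene at -0.59 over the 12 libraries. In all 5 genes, ENSBTAG00000000668 among them, had an r above 0.9 and 11 an r below -0.9, and over the 12 libraries 0 were above 0.9. What sets these 2 libraries apart was not tested.

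**Figure D3:**
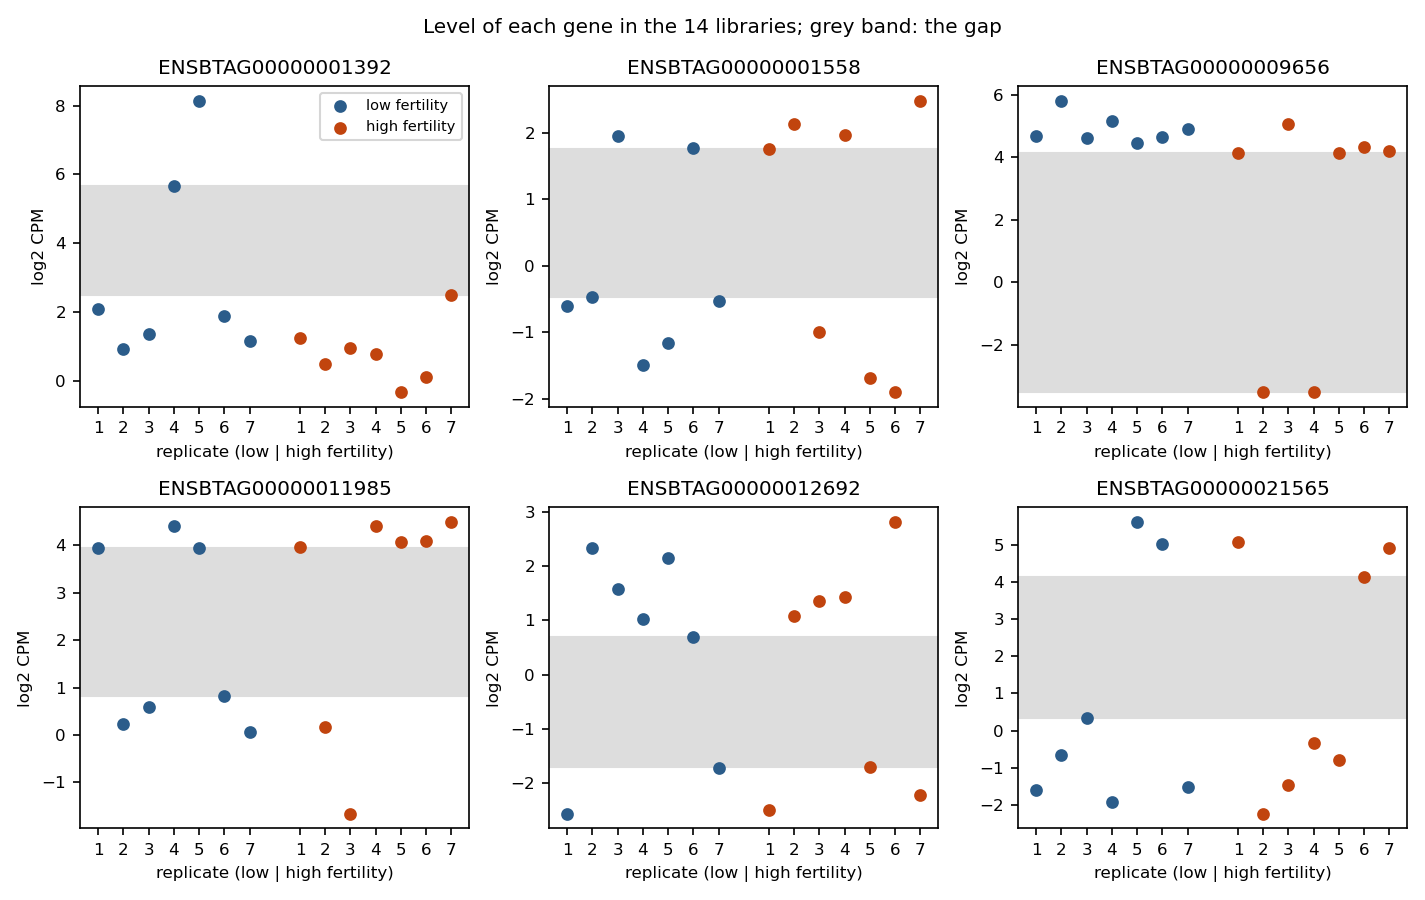
Log2 CPM (vertical axes) of the 6 genes in 7 low fertility libraries (blue, left of each panel) and 7 high fertility libraries (orange, right), by replicate, with the gap between the levels in grey. Libraries of both groups lie on both sides of the gap for ENSBTAG00000001558, ENSBTAG00000011985, ENSBTAG00000012692 and ENSBTAG00000021565, while the upper level of ENSBTAG00000001392 holds only low fertility replicates 4 and 5 and the low level of ENSBTAG00000009656 only high fertility replicates 2 and 4.

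The 6 genes did not share 1 set of libraries. No pair of them had the same libraries at the low level, and the 14 libraries showed 11 different combinations of states. The combination was the same in low fertility replicate 1 and high fertility replicate 5, in low fertility replicate 2 and high fertility replicate 3, and in high fertility replicates 1 and 7. Low fertility replicate 7 was at the low level for 5 of the 6 genes, all but ENSBTAG00000009656. Low fertility replicate 5 was at the low level for 1, ENSBTAG00000001558, and the other libraries for 2 to 4.

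Over the 15 pairs of genes the same state was found in 4 to 9 of 14 libraries. ENSBTAG00000011985 and ENSBTAG00000012692 shared 1 low library, 16.7% of the 6 and 20% of the 5. ENSBTAG00000001558 and ENSBTAG00000009656 shared 0 low libraries. ENSBTAG00000011985 and ENSBTAG00000021565 shared 5, 83.3% of the 6 and 55.6% of the 9. That pair also had the highest Pearson r of log2 CPM, 0.372, and ENSBTAG00000001558 with ENSBTAG00000009656 the lowest, -0.493. These are descriptions over the same 14 libraries, in which gene pairs with many low libraries must share some.

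The wider set of 32 genes fell into 18 different divisions of the libraries, and 5 divisions were shared by 2 or more genes. The division held by most genes was low fertility replicates 4 and 5 alone at the low level, with 9 genes. Of the divisions of the 6 genes, that of ENSBTAG00000009656 was shared with ENSBTAG00000038128. The other 5 were each held by a single gene when the side that is low is counted. For ENSBTAG00000001392 the reverse division was the one held by those 9 genes. A low level of 0 counts in every low library was found for 3 of the 32 genes, ENSBTAG00000009656 and ENSBTAG00000038128 among them.

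**Figure D4:**
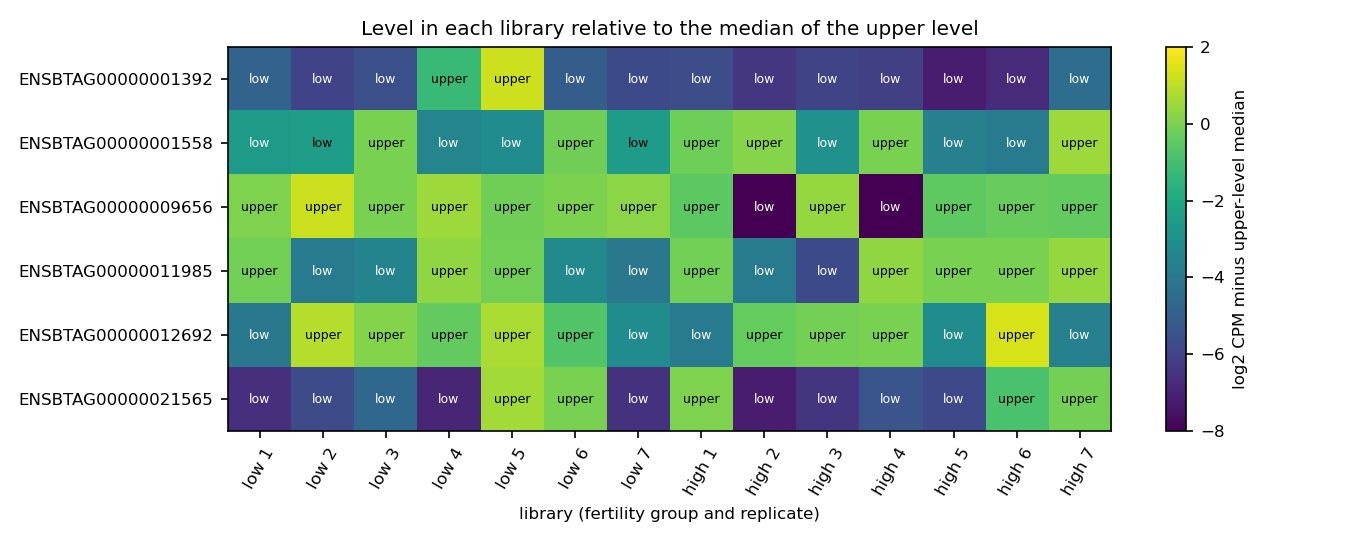
State of the 6 genes (rows) in the 14 libraries (columns, fertility group and replicate), coloured by log2 CPM minus the median of the gene's upper level and marked low or upper. Low states are scattered over columns of both groups, and no pair of rows shows the same set; low 7 is marked low in 5 of 6 rows and low 5 in 1.

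The study compared high with low fertility endometrium. Libraries at the low level numbered 3 of 7 high and 5 of 7 low fertility for ENSBTAG00000001558, 2 and 4 for ENSBTAG00000011985, 3 and 2 for ENSBTAG00000012692, and 4 and 5 for ENSBTAG00000021565. For ENSBTAG00000009656 they numbered 2 high and 0 low fertility, and for ENSBTAG00000001392 7 high and 5 low fertility. In the edgeR quasi-likelihood test over all genes 0 of the 6 passed an adjusted p of 0.05, where 0.0335% of the 14929 genes did. At an unadjusted p under 0.05 there was 1, ENSBTAG00000001392, where 6.77% of all genes were. DESeq2 called ENSBTAG00000001392 at an adjusted p under 0.05, where 0.147% of genes with an adjusted p were called, and limma-voom called 0. DESeq2 gave no adjusted p for ENSBTAG00000001558 and ENSBTAG00000012692. Since the genes were chosen partly by where high fertility libraries lay, nothing is read from these counts.

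Fitted log2 changes, high minus low fertility, had wide errors. They were 0.89 (SE 0.789) for ENSBTAG00000001558 and 0.72 (SE 0.867) for ENSBTAG00000011985, and without low fertility replicates 4 and 5 they were 0.49 (SE 0.820) and 1.68 (SE 0.975). They were -0.14 (SE 0.864) for ENSBTAG00000012692 and -0.0038 (SE 1.36) for ENSBTAG00000021565. That of ENSBTAG00000009656 was -1.03 (SE 0.793), from 15.2 ± 11.7 CPM (SD, n = 7) in high and 31.1 ± 11.9 CPM (SD, n = 7) in low fertility, and -3.36 (SE 1.33) by limma-voom. That of ENSBTAG00000001392 was -4.60 (SE 1.22), with 2.04 ± 1.62 CPM (SD, n = 7) in high and 49.6 ± 104 CPM (SD, n = 7) in low fertility, and it was -0.48 (SE 0.437) without low fertility replicates 4 and 5.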

How the data were processed

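Whole-number read counts per gene were deposited by the authors, not normalised, in 1 table of 14 libraries and 1 file per library, of which 0 of 217336 values differed. The submitters' processing notes list CASAVA 1.4, STAR, HTSeq 0.3p7, edgeR and build UMD3.1. Settings, annotation and use of strand were not given in the sources used here. How reads of overlapping or near-identical genes were counted or set aside is therefore not known. Of 37063 genes in the reference table (ARS-UCD2.0), 0 carry Ensembl cattle identifiers, so marker lists and family counts were not run.

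Genes were filtered with filterByExpr in edgeR 4.0.16 (R 4.3.3), scaled by TMM factors, and log2 CPM used a prior count of 2. The gap is the largest difference between neighbours among the 14 sorted values. The fertility contrast used edgeR's robust quasi-likelihood test over all 14 libraries, Benjamini-Hochberg adjusted, with DESeq2 1.42.0 and limma 3.58.1 (voom) as alternatives. Standard errors came from the log2 change and its F statistic. The fit and the gap search were tested on simulated data. Poisson intervals are exact, cover counting error only and are at 95%. The genes and rules were chosen with earlier results of these data known. Named genes are the 6, the genes most and least like each by Pearson r, and values nearest the threshold; ENSBTAG00000038128 falls under that rule. Other scalings, filters and prior counts, and leaving out each library, were also run. Figures used matplotlib 3.10.9.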

Additional observations from a re-analysis of the deposited data

Results flagged for a closer look

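In 14 groups of 7 values (the 6 genes and the total count in each fertility group), 5 values stood well away from the remaining libraries of the group. If the values were normally distributed, about 1 group in 20 would hold such a value by chance. That was not checked for CPM, and these genes were chosen for separate levels, so the rate need not hold here. ENSBTAG00000001392 was at 283 CPM in low fertility replicate 5, against 50.6 CPM for the next, and at 5.51 CPM in high fertility replicate 7, against 2.30 CPM. ENSBTAG00000012692 was at 6.94 CPM in high fertility replicate 6, against 2.61 CPM for the next. ENSBTAG00000009656 was at 56.0 CPM in low fertility replicate 2, against 35.7 CPM for the next. The total count of low fertility replicate 6 was 20641141, against 22334326 for the next of its group.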

How the results depend on the processing

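For ENSBTAG00000001558, ENSBTAG00000009656, ENSBTAG00000011985, ENSBTAG00000012692 and ENSBTAG00000021565 the same libraries were at the low level under all 19 alternatives run on gaps (scaling, prior count, each library left out, and low fertility replicates 4 and 5 left out together, the last chosen after the data were seen). The prior count of 5 took the gap of ENSBTAG00000012692 to 1.99, under the threshold, and prior counts of 0.5 and 5 gave gaps of 9.62 and 6.32 for ENSBTAG00000009656, whose low level is 0 counts. The gap of ENSBTAG00000001392 was 5.68 without low fertility replicate 4 and 0.51 without replicates 4 and 5. Genes with a gap of 2 or more numbered 121, and 85 to 152 without 1 library, 187 with a prior count of 0.5 and 61 without low fertility replicates 4 and 5. For fertility, edgeR called 5 genes, upper quartile factors gave 3, DESeq2 19, limma-voom 1, the fit without replicates 4 and 5 gave 2, and leaving out 1 library 0 to 5 (0 when the library was high fertility replicate 2, 3, 4 or 6 or low fertility replicate 2 or 4, and 1 for high fertility replicate 7). Of the 6 genes DESeq2 called 1, ENSBTAG00000001392 (adjusted p 0.0149, range over all alternatives 0.0149 to 0.930). It gave no adjusted p for ENSBTAG00000001558 and ENSBTAG00000012692. The other fits, those without 1 library included, called 0. The log2 change, high minus low, turned sign for ENSBTAG00000012692 (0.094 without replicates 4 and 5, -0.87 to 0.15 without 1 library) and for ENSBTAG00000021565 (0.000313 with upper quartile factors, 0.62 by limma-voom, 0.79 without replicates 4 and 5, -0.54 to 1.05 without 1 library). It kept its sign without 1 library for ENSBTAG00000001558 (0.58 without high fertility replicate 7 to 1.398 without low fertility replicate 3), ENSBTAG00000011985 (0.52 to 1.15, the highest without low fertility replicate 4), ENSBTAG00000009656 (-1.35 to -0.81) and ENSBTAG00000001392 (-5.08 to -2.40, the smallest change without low fertility replicate 5, and -2.23 by limma-voom). The cause was not tested. Depth limits what the low levels of 0 to 5 counts can show. No paired analysis was possible because the labels give no numbers shared between the groups.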
